A study of Mus musculus with 6 samples.

Results

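The cytochrome P450 genes of the mouse autosomes were followed here through the order in which their DNA was copied in growing myeloid cells. They were taken from the RefSeq annotation of GRCm38 (mm10) as the autosomal protein-coding genes whose symbol is Cyp followed by a number, a letter and a number, with or without a further letter, together with Cyp51. This gave 98 of 20661 autosomal protein-coding genes. Of these, 78 had a timing value in all 6 profiles, 2 had a value in some profiles, and the 18 on chromosome 19, where no window carried a value, had none. The cells were proliferating myeloid lines, immortalised by HoxB8 and kept under GM-CSF selection, and the series held 3 samples labelled WT and 3 labelled Recql4 -/- Klhdc3 -/-, which lack a helicase that acts when replication starts and a substrate receptor of a ubiquitin ligase. The labels gave a division time of 15 to 18 hours and more than 25% of the cells in S phase. Whether each sample is a line of its own is not stated. DNA, not RNA, was measured, so neither the myeloid identity of the lines nor the expression of any P450 gene could be checked. The 6 value columns of the tables carried no names. They are called profiles A to F, no profile is known to replicate another, and no comparison of genotypes was made.

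In an unsorted growing culture, DNA that replicates early is present in more copies than DNA that replicates late, so sequencing depth follows replication timing. The deposited score is a smoothed form of that depth, scaled so that autosomal windows average 0 with an SD of 1, and a higher score means earlier replication. Each gene took the score of the window nearest its midpoint, at most 50 kb away, and of the 78 genes all but 2 (Cyp3a41b and Cyp2a22) found one within 10 kb. A gene is called early below when its score was above 0 in each of the 6 profiles and late when it was below 0 in each. The raw copy level of the same windows, with autosomal medians of 1.96 to 1.98, scattered around the score with an SD of 0.121 to 0.127, so the raw level of 1 window is a coarse measure. The depth behind a window is unknown.

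P450 enzymes are haem proteins that insert an oxygen atom into small lipophilic molecules. Some members have fixed biosynthetic tasks, in the making of steroid hormones, bile acids, cholesterol and active vitamin D, and these tend to be lone genes with a clear counterpart in other vertebrates. Others oxidise drugs, plant compounds and fatty acids, are made mainly in liver, kidney, gut and lung, and lie in tandem arrays that have grown by repeated gene duplication in rodents. Late replication is a general feature of DNA that is poor in genes and closed in the cell type studied.

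The P450 genes as a group scored lower, and so replicated later, than the typical gene when each gene was counted. Their median score was 0.45, 0.48, 0.51, 0.52, 0.44 and 0.28 in profiles A to F, against 0.87, 0.85, 0.82, 0.78, 0.81 and 0.70 over the 18351 autosomal genes with a score in all profiles. The difference was below 0 in each of the 6 profiles, with a median of -0.37 (range -0.42 to -0.27). Large arrays weigh on this value: with each cluster or lone gene counted once, the median over loci was 0.73, against 0.82 over all genes. Of the 78 genes, 54 were early (69.2%, against a background of 76.2% of all genes), 13 were late (16.7%, against 15.5%) and 11 changed sign between profiles (against 1524 of 18351). The share of late genes was thus near the background. Most lay in the later part of the order: when all genes were cut by median score into 5 bins of 20% each, 22, 27, 16, 7 and 6 P450 genes fell into the bins from latest to earliest. Genes are not independent replicates, and neighbours in an array share their timing, so no test over genes was made.

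The ends of the order are shown first, with the DNA before the start site, because CpG-rich promoters were commoner among early than among late genes as a whole and 2 of the earliest P450 genes had few CpGs. The earliest of all was Cyp1a2, a liver enzyme that oxidises aromatic amines and caffeine, at 1.51, 1.58, 1.58, 1.40, 1.46 and 1.38 in profiles A to F, and 91.7% of all genes had a lower median. The latest was Cyp2j5, a kidney and liver enzyme that acts on arachidonic acid, at -1.55, -1.50, -1.38, -1.43, -1.37 and -1.40, and 2.07% of all genes had a lower median. Among the lone genes whose start-site sequence was in the RefSeq table, Cyp8b1, the sterol hydroxylase that directs bile acid synthesis towards cholic acid, was the earliest at 1.04 to 1.38, and Cyp4v3, a fatty acid hydroxylase, the latest at -1.05 to -0.47. The lines below give the 250 bases before each start site in GRCm38.p6, 5′ to 3′ on the strand of the gene, with every CpG in capitals. All 4 genes lie on the minus strand, and the stretches are chr9:57683656-57683905, chr4:96664120-96664369, chr9:121916306-121916555 and chr8:45333164-45333413 in the order printed. The start used for Cyp2j5 lies 52 bases from the annotated start of the gene.
Cyp1a2: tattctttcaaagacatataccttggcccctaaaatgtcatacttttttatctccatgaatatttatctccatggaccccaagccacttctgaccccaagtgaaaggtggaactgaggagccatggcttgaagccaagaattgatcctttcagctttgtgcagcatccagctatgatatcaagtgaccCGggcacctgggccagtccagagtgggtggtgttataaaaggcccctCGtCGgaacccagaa
Cyp2j5: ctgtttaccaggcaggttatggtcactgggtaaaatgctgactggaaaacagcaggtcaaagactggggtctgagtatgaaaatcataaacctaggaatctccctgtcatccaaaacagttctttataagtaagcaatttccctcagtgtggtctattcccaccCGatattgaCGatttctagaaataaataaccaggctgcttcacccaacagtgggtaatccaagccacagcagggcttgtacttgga
Cyp8b1: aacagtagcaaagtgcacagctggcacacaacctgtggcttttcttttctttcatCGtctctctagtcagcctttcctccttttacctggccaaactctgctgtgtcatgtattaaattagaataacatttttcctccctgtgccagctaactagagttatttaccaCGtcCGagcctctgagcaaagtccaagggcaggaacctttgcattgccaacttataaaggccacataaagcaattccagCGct
Cyp4v3: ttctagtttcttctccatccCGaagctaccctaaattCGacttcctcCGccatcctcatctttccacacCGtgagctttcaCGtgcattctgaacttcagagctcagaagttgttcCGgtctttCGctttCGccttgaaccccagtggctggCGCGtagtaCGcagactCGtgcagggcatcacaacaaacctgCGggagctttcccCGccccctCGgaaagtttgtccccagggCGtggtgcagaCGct

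The early Cyp1a2 and Cyp8b1 stretches held 3 and 4 CpGs, and the late Cyp4v3 stretch held 17. In Cyp1a2 and Cyp8b1 the letters TATAAA began 29 and 31 bases before the start, in Cyp2j5, with 2 CpGs, they occurred on the other strand only, and in Cyp4v3 they did not occur on either strand. Over the 59 measured P450 genes found in the table, 5 (8.47%) had a CpG-rich stretch, meaning a GC content of at least 55% and an observed over expected CpG ratio of at least 0.6, against a background of 38.6% of 14576 autosomal genes. The start in the table nearest the annotated gene start was used throughout, and 4 of the 59 lay over 1000 bases from it, those of Cyp2j6 (10654 bases), Cyp1a1 (9685), Cyp3a13 (3991) and Cyp2j9 (1038). A CpG-rich stretch was found at 1 of 45 clustered genes and 4 of 14 lone genes. Among early genes the share with such a stretch was 4 of 41 for the P450 genes and 43.7% over all genes. Among late genes it was 1 of 11 and 16.4%. TATAAA on either strand was found in 20 of the 59 stretches (33.9%, background 12.5%), and 25 to 35 bases before the start in 7 of them (11.9%, background 2.66%). A match to these letters is not evidence of a bound factor.

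Lone P450 genes replicated at about the typical time and clustered ones later. Members were joined into a cluster when they lay at most 500 kb apart, which gave 8 clusters with 58 measured genes and 20 measured lone genes. Clustered genes had median scores of 0.38, 0.32, 0.34, 0.38, 0.39 and 0.19 in profiles A to F, and lone genes 0.94, 0.91, 0.92, 0.93, 0.90 and 0.71. The clustered median was lower in each profile, by 0.55 in the median (difference -0.60 to -0.51), while the lone median lay 0.014 to 0.14 above that of all genes. Of the 58 clustered genes, 37 were early (63.8%), 10 late and 11 mixed. Of the 20 lone genes, 17 were early (85.0%), 3 late and 0 mixed. Over all genes, 76.2% were early, 15.5% late and 1524 of 18351 mixed. The late shares of both classes, 17.2% and 15%, were near that of all genes. The raw level was also lower over the clustered genes (2.04, 2.01, 2.00, 2.00, 1.99 and 1.98) than over the lone genes (2.10, 2.15, 2.14, 2.12, 2.11 and 2.06) in each profile. Against all genes (2.12, 2.11, 2.10, 2.08, 2.09 and 2.09), the raw level of the lone genes was higher in B, C, D and E and lower in A and F. With each locus counted once, the difference was -0.34 (-0.37 to -0.19). With each cluster left out in turn it lay between -0.65, without the Cyp2d array, and -0.42, without the Cyp4 array of chromosome 4.

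**Figure D1:**
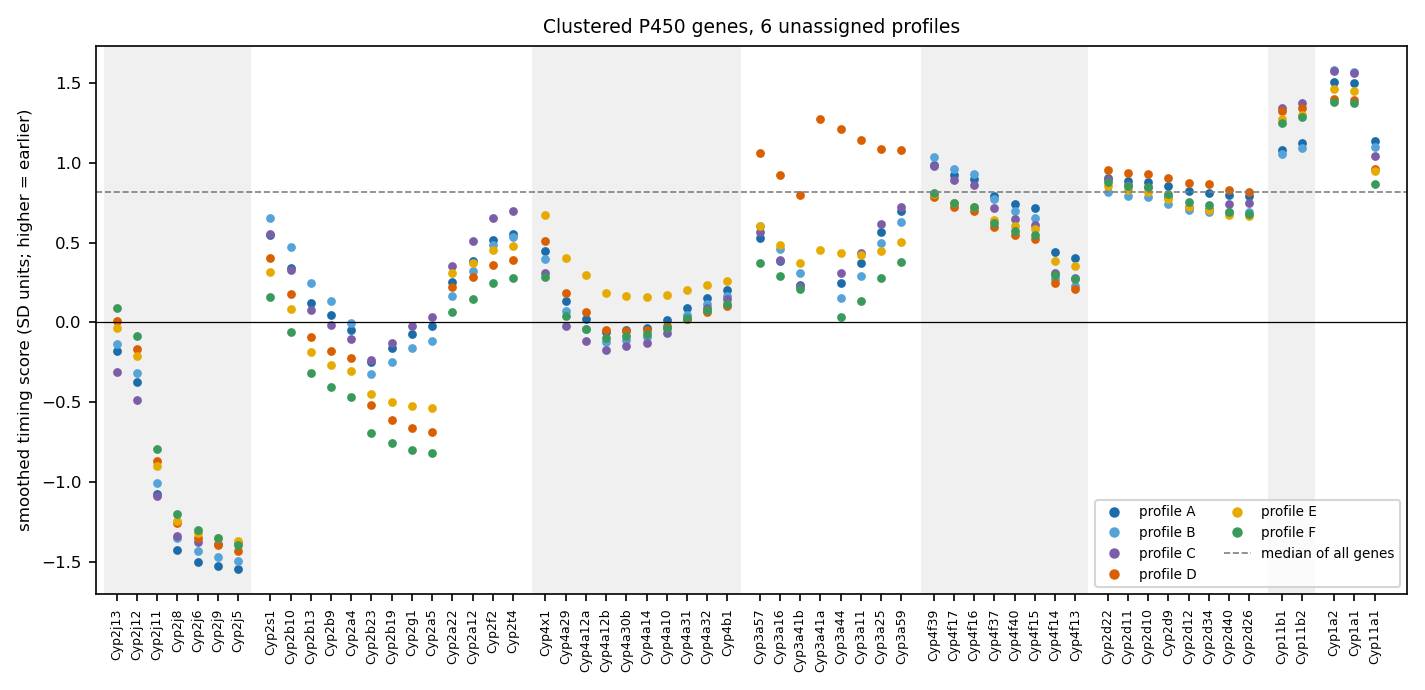
Smoothed timing score (SD units, higher is earlier) of the clustered P450 genes in genome order within each cluster, clusters ordered by median score and shaded alternately; each point is 1 of the 6 unassigned profiles and the dashed line is the median of all autosomal genes. The Cyp2j genes reach down to -1.55 and the Cyp1a genes up to 1.58, and profile D stands above the others along the Cyp3a array.

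Among the genes of drug and xenobiotic metabolism, the arrays differed widely in timing. The 34 measured genes of this list had a median score of 0.54 (0.29 to 0.87 over the profiles), with 26 early (76.5%) and 4 late (11.8%), near the 76.2% and 15.5% of all genes. The earliest were Cyp1a1 and Cyp1a2, targets of the aryl hydrocarbon receptor, which lie back to back on chromosome 9. Cyp1a1 scored 1.37 to 1.57, just below Cyp1a2 in each profile, and both had raw levels of 2.13 to 2.31. Cyp11a1, the mitochondrial enzyme that cuts the side chain of cholesterol, was joined to the same cluster (57676937 to 58027031) and scored 1.14, 1.10, 1.05, 0.96, 0.95 and 0.87. Timing thus fell along these 350 kb in each profile, and Cyp11a1 did not overlap the Cyp1a genes.

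The Cyp2d array on chromosome 15 (82370527 to 82794452) was the most even of the large ones. Cyp2d genes encode enzymes that oxidise many basic drugs. The 8 measured genes scored from 0.67 to 0.96 over all profiles, and all 8 were early and lay in the middle bin of all genes. Within a profile the array spanned 0.11 to 0.20 score units over 424 kb. By median score it ran from Cyp2d22 at 0.91, 0.82, 0.90, 0.96, 0.85 and 0.88 to Cyp2d40 at 0.80, 0.69, 0.74, 0.83, 0.68 and 0.69. Cyp2d22 had the higher score of the pair in each profile, and the lowest score was that of Cyp2d40 in B only, Cyp2d34 in C and Cyp2d26 in the others. The raw level of the nearest window was instead lower for Cyp2d22 in each profile, at 1.89 to 2.01 against 2.05 to 2.32 for Cyp2d40. Raw levels averaged within 50 kb and rescaled were 0.56 for Cyp2d22 and 0.70 for Cyp2d40. The array held 10 pseudogenes, the most of any cluster.

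The Cyp3a array on chromosome 5 (145345149 to 146114978) was early throughout but with a dip at its centre. Cyp3a enzymes are among the most abundant drug oxidases of liver and gut. The first gene, Cyp3a57, scored 0.53, 0.60, 0.57, 1.06, 0.61 and 0.38, and the last, Cyp3a59, scored 0.70, 0.63, 0.72, 1.08, 0.50 and 0.38. Between them Cyp3a41b scored 0.24, 0.31, 0.23, 0.80, 0.37 and 0.21 from a window 30956 bp away, and Cyp3a44 scored 0.25, 0.15, 0.31, 1.21, 0.44 and 0.034. Profile D was the highest at each of the 7 measured genes. In it Cyp3a44 lay above both ends of the array, whereas in the other 5 profiles it lay below both. Cyp3a41a had a value only in D (1.28) and E (0.46).

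The largest array, on chromosome 7 (25802469 to 27158564), holds the Cyp2a and Cyp2b genes with Cyp2s1, Cyp2g1, Cyp2f2 and Cyp2t4. Cyp2b10 is the classical target of the phenobarbital response, and Cyp2a5 oxidises coumarin. Both ends were early: Cyp2s1 scored 0.55, 0.66, 0.56, 0.40, 0.32 and 0.16, and Cyp2t4 scored 0.55, 0.53, 0.70, 0.39, 0.48 and 0.28. The interior was later, down to Cyp2b23 at -0.25, -0.32, -0.24, -0.52, -0.45 and -0.69, which was below both ends in each profile. Of the 13 genes, 5 were early, 4 late and 4 mixed. Cyp2a5 scored -0.022, -0.12 and 0.035 in profiles A, B and C and -0.69, -0.54 and -0.82 in D, E and F, so the sign was shared by 5 profiles and the size was not.

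Genes for fatty acid and eicosanoid oxidation were the latest of the larger lists, with a median score of 0.063 over 28 genes, 14 of them early (50%) and 7 late (25%), beside 76.2% and 15.5% over all genes. The Cyp2j array on chromosome 4 (96042660 to 96664171) gave 6 of the 7 late ones. Cyp2j enzymes turn arachidonic acid into epoxides. The array runs down a slope from Cyp2j13 at -0.18, -0.13, -0.31, 0.0073, -0.032 and 0.090 to Cyp2j5, over 1.08 to 1.49 score units in 622 kb, the widest span of any cluster. Each gene scored lower than its left neighbour in median score. The mean raw level over the array was 1.80, 1.82, 1.84, 1.83, 1.80 and 1.83, against 1.93, 1.94, 1.96, 1.93, 1.93 and 1.94 over 500 kb on each side, lower in each profile. The gene next to the array on the left, Hook1, scored 0.12 in the median, and the one on the right, Gm12695, scored -1.40.

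The Cyp4 array of chromosome 4 (115106323 to 115647721) lay close to the genome average. Cyp4a enzymes hydroxylate the end of fatty acid chains and respond to PPAR-alpha in liver. Cyp4x1 at the left end scored 0.45, 0.40, 0.31, 0.51, 0.68 and 0.29, and Cyp4b1 at the right end 0.20, 0.17, 0.15, 0.10, 0.26 and 0.12. Cyp4a12b in between scored -0.058, -0.12, -0.17, -0.047, 0.18 and -0.096. It was lower than both ends in each profile, and above 0 in E alone. Of the 8 Cyp4a genes 2 were early, none late and 6 mixed, since their scores crossed 0 by small amounts. The genes on either side, Pdzk1ip1 and Efcab14, had medians of 0.49 and 0.48.

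The Cyp4f array of chromosome 17 (32452697 to 32947415) was early by score along its whole length, and its score fell from left to right. Cyp4f enzymes break down leukotrienes and other eicosanoids. Cyp4f39 scored 0.99, 1.04, 0.98, 0.79, 0.80 and 0.81, and Cyp4f13 at the other end scored 0.41, 0.23, 0.28, 0.21, 0.35 and 0.27. The groups of scores did not overlap, and the fall in score of 0.45 to 0.81 was present in each profile. The raw level of the nearest window went the other way in each profile, at 1.94 to 2.01 for Cyp4f39 and 2.00 to 2.07 for Cyp4f13. With raw levels averaged within 50 kb and rescaled, Cyp4f39 was also the lower, at 0.35 against 0.52. The lone gene Cyp4f18 on chromosome 8, a leukotriene hydroxylase of neutrophils and thus a member with a known task in myeloid cells, scored 1.26, 1.25, 1.21, 1.25, 1.33 and 1.12, above every gene of the array. Cyp2u1, another lone fatty acid hydroxylase, scored 0.78 to 1.04.

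**Figure D2:**
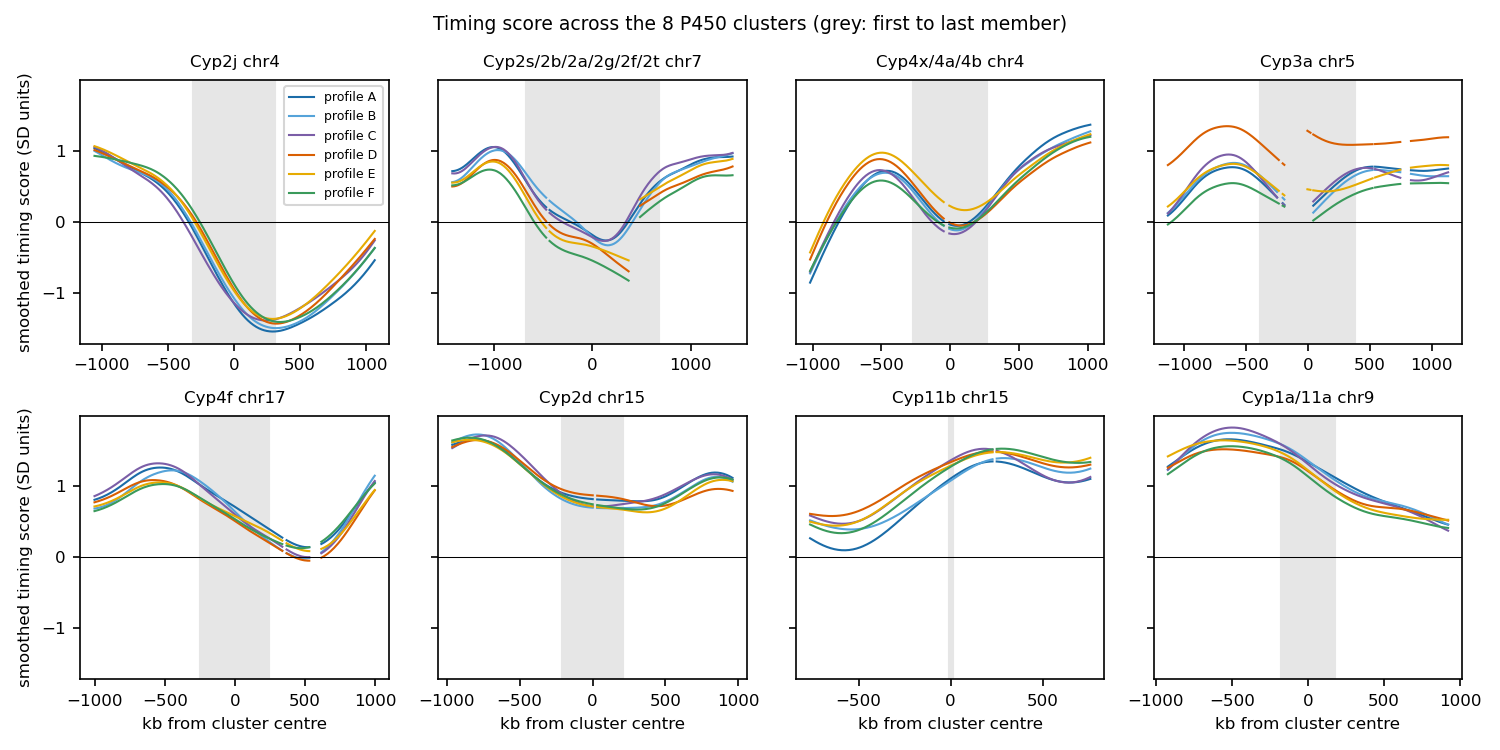
Smoothed timing score (SD units) against distance in kb from the centre of each of the 8 P450 clusters, 1 line per profile, with grey from the first to the last member and gaps where windows carry no value. The arrays of chromosome 7, the Cyp4 array of chromosome 4 and the Cyp3a array hold a local low, the Cyp2j array lies on a slope and at its foot, and the lines of profiles D, E and F break on the right of the chromosome 7 array, at a stretch without values, and resume higher.

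Genes of steroid hormone synthesis were the earliest list, with a median score of 1.21 (1.09 to 1.32) and 5 of 5 measured genes early, where 76.2% of all genes were. Cyp17a1, which makes androgens and cortisol precursors, is on chromosome 19 and had no value. Cyp11b1 and Cyp11b2, the adrenal genes for glucocorticoid and aldosterone synthesis, lie side by side on chromosome 15 (74834892 to 74856231) and scored 1.06 to 1.34 and 1.09 to 1.38. Cyp21a1, a steroid hydroxylase gene in the class III region of the major histocompatibility complex, was at 1.26, 1.28, 1.27, 1.33, 1.24 and 1.18. Cyp19a1, which encodes aromatase, was the latest of the list at 0.33, 0.44, 0.30, 0.22, 0.37 and 0.15, and lay below the other 4 in each profile.

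Sterol and bile acid genes were all lone genes and spread over most of the range. Next to Cyp8b1 in time came Cyp27a1, a mitochondrial sterol hydroxylase that is active in macrophages, at 1.02 to 1.20. Cyp51, which removes a methyl group from lanosterol in cholesterol synthesis and is used by nearly all cells, scored 0.92, 0.90, 0.91, 0.91, 0.81 and 0.64. Cyp7a1, the rate-limiting enzyme of bile acid synthesis, scored 0.32 to 0.48. Cyp39a1, an oxysterol hydroxylase, scored 0.44, 0.52, 0.50, 1.52, 0.34 and 0.17. The latest lone gene of all was Cyp7b1, an oxysterol hydroxylase of chromosome 3 (18071944 to 18243890), at -1.34, -1.27, -1.34, -1.61, -2.80 and -1.17. Cyp46a1, the cholesterol hydroxylase of neurons, is on chromosome 12, where D and E carry no value, and scored 0.090, 0.22, 0.64 and 1.62 in A, B, C and F.

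Vitamin D genes were early by modest scores. Cyp27b1, which makes the active hormone, scored 0.80 to 1.04, Cyp24a1, which degrades it, 0.35 to 0.65, and Cyp2r1, a vitamin D hydroxylase of liver, 0.12 to 0.44. Cyp27b1 lay above both others in each profile. Of the retinoic acid genes only Cyp26b1 had values, at -0.24, -0.20, -0.0013, -0.055, -0.12 and -0.26, which is late by the sign rule but all but 0 in profile C. Cyp26a1 and Cyp26c1 are on chromosome 19. Cyp20a1, whose substrate is not settled, scored 0.94 to 1.34. The lone genes of the xenobiotic list were early, with Cyp3a13 at 0.97 to 1.33, Cyp2e1, which oxidises ethanol, at 1.05 to 1.25, Cyp2w1 at 0.78 to 1.54 and Cyp1b1, which acts on polycyclic hydrocarbons and oestrogens, at 0.51 to 1.73. The high end of Cyp2w1 and of Cyp1b1 was profile D in both.

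**Figure D3:**
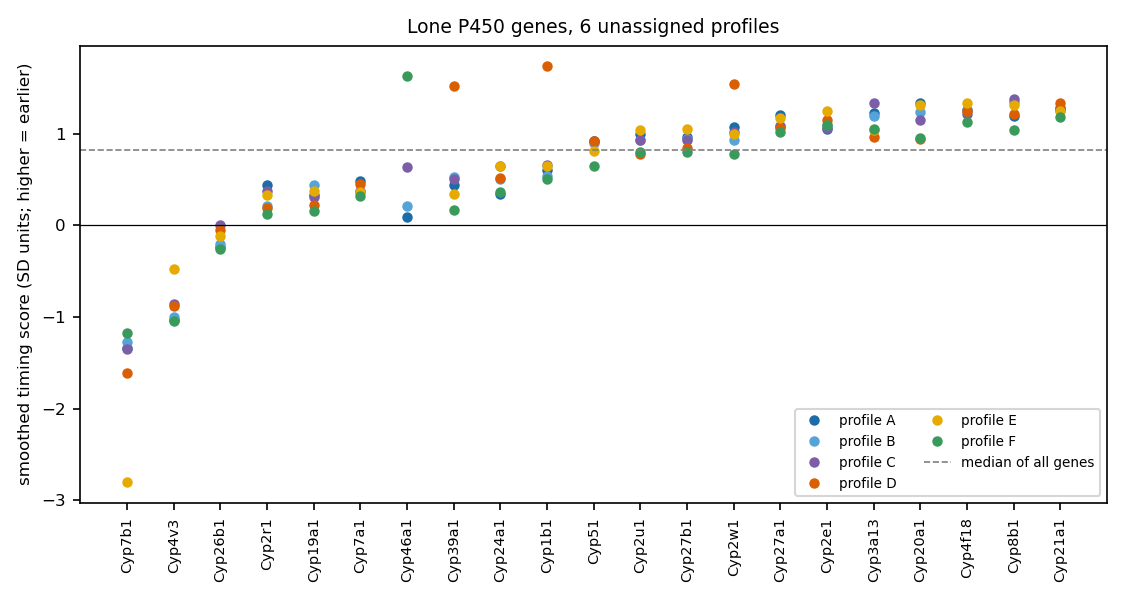
Smoothed timing score (SD units, higher is earlier) of the lone P450 genes ordered by median; each point is 1 of the 6 unassigned profiles and the dashed line is the median of all autosomal genes. Cyp7b1, Cyp4v3 and Cyp26b1 lie below 0, and single profiles stand apart at Cyp7b1 (E at -2.80), Cyp39a1 (D at 1.52), Cyp1b1 (D at 1.73) and Cyp46a1 (F at 1.62).

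Clusters also differed from the mean of their flanks. For each locus, the mean score of the windows from first to last member was set against that of 500 kb on each side, both sides pooled. A difference need not hold on both sides. The Cyp2j array had a mean of -0.94, between its neighbours Hook1 (0.12) and Gm12695 (-1.40). The Cyp4f array had a mean of 0.60, between Pglyrp2 (0.96) and Zfp472 (0.24). The difference was below 0 in all 6 profiles for 6 of the 8 clusters and above 0 in all 6 for the other 2. It was -0.79 (-0.87 to -0.74) at the chromosome 7 array, -0.63 (-0.70 to -0.53) at the Cyp2j array and -0.55 (-0.66 to -0.45) at the Cyp4 array of chromosome 4. Smaller values were found at Cyp2d (-0.26), Cyp3a (-0.25) and Cyp4f (-0.097). The 2 clusters that were earlier than their flanks were the small ones, Cyp11b (0.16) and Cyp1a with Cyp11a1 (0.082). The mean raw level inside the other 6 clusters was below that of the flanks in each profile, and at Cyp1a with Cyp11a1 above it. At Cyp11b, which covers 3 windows, the raw level went against the score: it was 2.09, 2.08, 2.12, 2.12, 2.09 and 2.13 inside and 2.13, 2.13, 2.13, 2.14, 2.14 and 2.16 in the flanks, lower inside in each profile. Of the 20 lone genes, 7 were later than their flanks in all profiles and 11 earlier, with values from -0.21 to 0.23. The same call was not made over all genes. The counts of clusters and lone genes thus have no background and are not read as a trait of P450 loci. A lone gene covers few windows and so differs less from its flanks by construction.

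**Figure D4:**
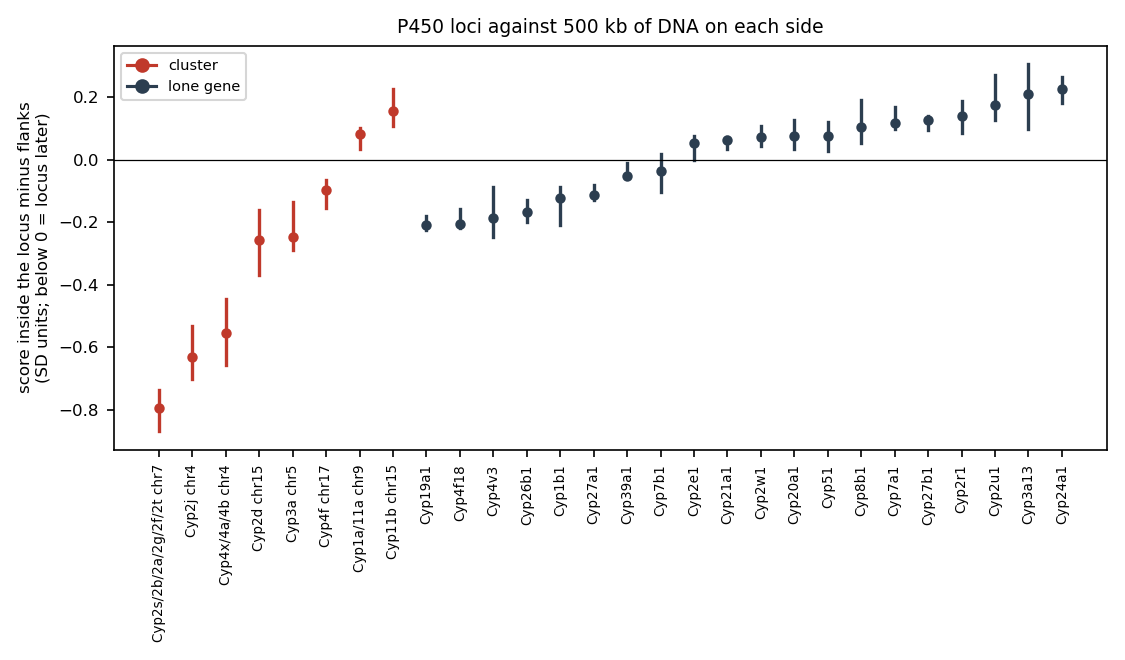
Mean timing score inside each P450 locus minus the pooled mean of 500 kb on each side (SD units, below 0 means the locus is later than that mean). Clusters are in red and lone genes in dark blue. Points are medians and bars the range over 6 profiles. The chromosome 7, Cyp2j and Cyp4 arrays lie between -0.87 and -0.45, and the lone genes between -0.25 and 0.31.

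In 3 arrays the lowest score lay inside the array, below both of its ends. The dip, the lower of the end windows minus the lowest window between them, was 0.88 (0.82 to 1.09) in the chromosome 7 array (lowest near Cyp2b23 by median over the profiles, and near Cyp2a5 in D, E and F), 0.44 (0.26 to 0.55) in the Cyp3a array and 0.26 (0.11 to 0.35) in the Cyp4 array of chromosome 4, in 6 of 6 profiles each. By median over the profiles the last 2 lay near Cyp3a41b and Cyp4a12b, but the lowest Cyp3a score was beside Cyp3a44 in B and F, and the lowest Cyp4 score near Cyp4a30b in D and Cyp4a14 in E. In the other 5 clusters it did not exceed 0.05 in any profile, so the score ran along a slope or was level.

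The score of P450 loci was set beside the number of other genes nearby. Protein-coding genes other than P450 genes numbered 1.85 per Mb around the Cyp2j array and 1.71 around Cyp7b1, the latest cluster and the latest lone gene, and 63.8 per Mb around Cyp21a1. Over the 28 measured loci Pearson's r between gene number and median score was 0.58 and Spearman's rho 0.71, with 0.58 and 0.78 over the 20 lone genes and 0.91 and 0.79 over the 8 clusters. These values describe loci that share the same 6 profiles. The order had exceptions: Cyp2u1, at 3.95 per Mb, scored 0.93, and Cyp4v3, at 6.81 per Mb, scored -0.94. The median was 19.5 other genes per Mb for the clusters and 10.4 for the lone genes. No other gene lay between the first and last member of the Cyp2j, Cyp3a and Cyp11b clusters and the Cyp4 array of chromosome 4. The genes counted there were those of the flanks. The part of gene number in the lower score of the clusters was not tested.

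**Figure D5:**
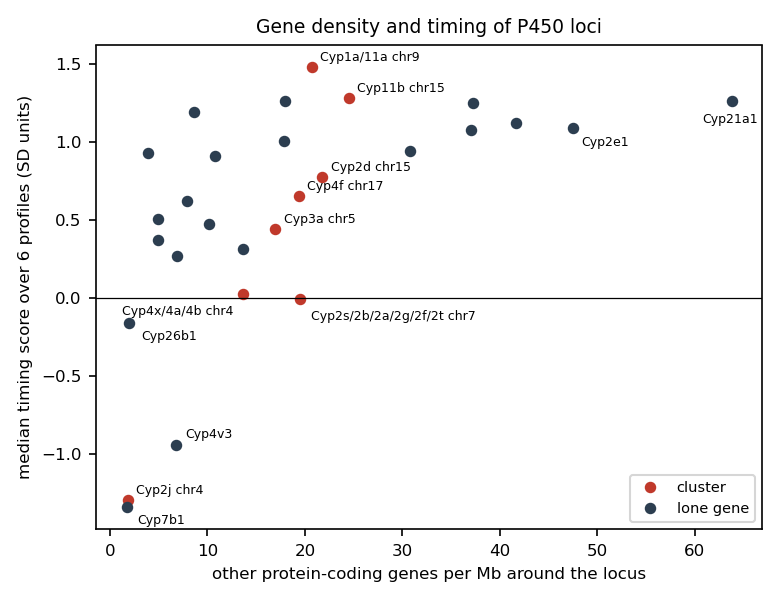
Median timing score over 6 profiles (SD units) against the number of other protein-coding genes per Mb within 500 kb of the locus, for 8 clusters (red) and 20 lone genes (dark blue). The Cyp2j array and Cyp7b1 have the fewest neighbours and the lowest scores, while other loci under 10 genes per Mb spread from Cyp4v3 at -0.94 to Cyp20a1 at 1.19.

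Most P450 genes kept their place across the profiles. The scores of a member ranged over 0.29 units in the median, against 0.27 over all genes, and 5 of 78 members (6.41%, background 3.19%) ranged over at least 1 unit: Cyp7b1 (1.62), Cyp39a1 (1.35), Cyp1b1 (1.23), Cyp3a44 (1.18) and Cyp3a11 (1.01). In each of them 1 profile stood apart, E at Cyp7b1 and D at the others. The mean raw level over the locus and 1 Mb on each side moved the same way. At Cyp7b1 it was 1.82, 1.84, 1.85, 1.74, 1.55 and 1.81, which put E at 84.8% of the median of the other profiles. At Cyp39a1 and Cyp1b1 profile D was at 106%, at the Cyp3a array and at Cyp2w1 at 103%, and at Cyp46a1 profile F was at 109%. A difference in copy number of the chromosome region and a difference in timing cannot be told apart in these levels. At Cyp4v3 profile E scored -0.47 against -1.05 to -0.86 in the others, and the raw level over the locus and 1 Mb on each side was 99.9% of theirs. Within the locus itself the raw level of E was the highest of the 6, at 1.93 against 1.83 to 1.91.

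Windows without values interrupted the arrays more than the lone genes. Inside the 8 clusters 28 of 413 windows lacked a value in at least 1 profile, of which 17 were in the Cyp3a array and 9 in the chromosome 7 array, and none of 88 windows did at the 20 lone genes. Windows at clustered genes were also wider, with 27.6% of at least 11000 bp against 5% at lone genes and 11.5% over the autosomes. How reads shared by near-identical gene copies were counted is not stated, so values inside the arrays are less certain than those of lone genes. At Cyp2a22 in the chromosome 7 array, 8 windows from 26855113 to 26959209 had values in A, B and C and none in D, E and F. Across this stretch the score rose by 0.25, 0.26 and 0.29 in A, B and C and by 0.92, 0.86 and 0.89 in D, E and F. A single step between adjacent windows was 0.0092 in the median genome-wide, with a 99th percentile of 0.038, whereas these rises cross 8 windows. The raw level over 100 kb on each side rose by 0.23, 0.21, 0.24, 0.16, 0.19 and 0.17, less in D, E and F than in A, B and C. The mean raw level over the whole array split the same way as the scores, at 1.98 in A, B and C and 1.93, 1.92 and 1.91 in D, E and F. The split was not limited to the array. Over 500 kb on each side of it the raw level was 2.12, 2.11 and 2.11 in A, B and C and 2.07, 2.08 and 2.08 in D, E and F. The lower scores of Cyp2b19, Cyp2g1 and Cyp2a5 in D, E and F thus belong to a line that breaks at this stretch, and the part of the missing windows in them was not tested. In the Cyp3a array 11 windows from 145624517 to 145767788, over Cyp3a41a, had no value in A, B, C and F and 3 values each in D and E, at raw levels up to 2.95 and 2.68. Across them the score of D rose by 0.55 and those of the others changed by -0.12 to 0.21.

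The partners of P450 enzymes replicated early. Of 25 listed electron donors, regulators and P450 genes under other names, 24 had values in all profiles, with a median score of 1.06 (0.95 to 1.12), 22 early (91.7%, background 76.2%) and 1 late. Por, the reductase that feeds electrons to microsomal P450 enzymes, scored 0.72 to 0.94. Fdxr and Fdx1, which serve the mitochondrial enzymes, scored 1.07 to 1.45 and -0.20 to 0.13. The nuclear receptor gene Nr1i2, which controls Cyp3a genes, scored 0.69 to 0.86, and Nr1i3, which controls Cyp2b genes, 1.14 to 1.59. The earliest was Tbxas1, the thromboxane synthase of platelets and macrophages and itself a P450, at 1.52 to 1.75, and the latest Nr5a2, a receptor that drives bile acid genes in liver, at -0.43 to -0.18. Ahr, the receptor that switches on Cyp1a genes, is on chromosome 12 and scored 0.54 to 0.97 in A, B and C and 2.19 in F.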

How the data were processed

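Whole-genome sequencing depth of 6 samples came as 2 tables without header, covering 237602 windows, each at least 10000 bp wide. The authors deposited a normalised DNA copy level per window and a smoothed timing score, each in 6 unnamed columns. TIGER was named in the series title, and mm10 and Picard 2.23.9 in the submitters' processing notes. For the aligner, the correction for GC and the smoothing, no source used here gives settings. Because columns and samples could not be matched, the planned permutation tests between genotypes were not run, and values are given per profile or as the median and range over 6 profiles. No value column was left unused.

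Each gene took the nearest window valued in all 6 profiles within 50 kb of its midpoint, or per profile where there was none; raw levels were taken in the same way from their own table. Clusters joined members at most 500 kb apart. Python 3.11.15, numpy 2.4.6 and pandas 2.3.3 were used, and placement and differences were tested on simulated scores. Named were every lone gene, the earliest and latest member of each cluster and list, the 5 widest-ranging members, members without full values, and the outer genes of the partner list. Other members and partners were chosen after their values were seen. The members and lists were chosen with earlier results of these data known. Left-out profiles, raw levels, gene positions, symbols, chromosomes, gaps and flanks were tried as alternatives.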

Additional observations from a re-analysis of the deposited data

Results flagged for a closer look

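In 6 of 32 sets of 6 profile values, the highest or lowest profile stood apart from the rest by more of the range than Dixon's 95% critical value for 6 values allows. Chance gives about 1 in 20 sets, neighbouring genes share their values, and the profiles are not known to replicate each other.

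Cyp7b1 scored -2.80 in profile E and -1.61 to -1.17 in the others. Cyp39a1 scored 1.52 in profile D and 0.17 to 0.52 in the others, and Cyp1b1 1.73 in D and 0.51 to 0.66 in the others. Both lie on chromosome 17. The Cyp3a array had a median of 1.08 in D and 0.28 to 0.46 in the others. Cyp4v3 scored -0.47 in E and -1.05 to -0.86 in the others. The median of all P450 genes was 0.28 in F and 0.44 to 0.52 in the others, while the median of all autosomal genes was 0.70 in F and 0.78 to 0.87 in the others.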

How the results depend on the processing

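No paired analysis was possible because the value columns carry no sample names or replicate numbers, so the replicate block was not run. Depth limits could not be given, since the tables hold no read counts. Clustered genes scored lower than lone genes under every alternative run. Of 55 values of the summary measures under other settings, 32 stayed within the limit set for the measure, 23 moved and 0 reversed. The limit was the SD over profiles for scores, differences and spans. For counts of genes it was a fixed ratio, and for the range per gene the SD of that range over genes. The causes of the 23 moves were not tested. With raw levels of the nearest window, rescaled, the median of the P450 genes was 0.29, 35 genes were above 0 in every profile, the clustered minus lone difference was -0.60 and the span within a cluster 1.56. Without chromosomes 3, 4, 6, 12, 14 and 17 the median was 0.64, 5 genes were below 0 in every profile, the difference was -0.45 and the span 0.39. With each locus once the median was 0.73 and the difference -0.34. Gaps of at most 200 kb gave a difference of -0.59 and a span of 0.35, and symbols without a trailing letter a difference of -0.50. Chosen after seeing the data were raw levels averaged within 50 kb, with a median of 0.33, a difference of -0.41 and a span of 0.73, and leaving out clusters: the difference was -0.59 without Cyp1a and Cyp11a1, -0.65 without Cyp2d, -0.44 without Cyp2j, -0.44 without the chromosome 7 array, -0.59 without Cyp3a, -0.63 without Cyp4f and -0.42 without the Cyp4 array of chromosome 4.

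Leaving out each profile in turn gave a median of 0.45 to 0.48, 54 to 55 genes above 0 and 13 to 16 below 0 in all remaining profiles, a difference that rounded to -0.55 throughout, a span of 0.49 to 0.50, a cluster minus flank value that rounded to -0.25 throughout, and a range per gene of 0.25 to 0.28. Of 152 values of named genes under other settings, 13 had a median of the other sign. Of these, 2 were of Cyp2j13, whose sign is mixed over the profiles, at 0.0026 with the window nearest the lower coordinate and 0.22 with raw levels within 50 kb. The other 11 were genes of 1 sign in all profiles and came with raw levels. In the nearest window they were Cyp20a1 (-0.33), Cyp4x1 (-0.063), Cyp51 (-0.17), Cyp3a44 (-0.17), Cyp26b1 (0.34), Cyp4v3 (0.036), Cyp19a1 (-0.19), Cyp11b1 (-0.23) and Cyp2d22 (-0.058), and within 50 kb Cyp3a41b (-0.014) and Cyp3a11 (-0.016).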

Other observations

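P450 pseudogenes, the decayed copies left by duplication in the arrays, had a median score near that of the intact genes. Those inside an array took the same windows as its intact members or windows near them, so this likeness is not a separate result. Cyp2a21-ps, for example, took the window of Cyp2a22. Of 34 annotated on the autosomes, 4 were on chromosome 19 and 30 had values in all profiles. Their median score was 0.56 (0.35 to 0.75 over the profiles), with 21 early (70%), 4 late (13.3%) and 5 changing sign, beside 76.2% early and 15.5% late over all genes, and 27 of the 34 lay inside a locus of intact members. The latest was Cyp2c73-ps on chromosome 14 (81370032 to 81371099), far from the Cyp2c array, at -1.76, -1.87, -1.89, -2.06, -1.91 and -1.85 in profiles A to F, below the median score of each of the 78 intact Cyp genes. The earliest was Cyp2d67-ps on chromosome 15 (81967701 to 81968549), outside the Cyp2d array, at a median of 1.53, highest in C at 1.65 and lowest in E, and above the median score of each of the 78 intact Cyp genes. No test was made of these values.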
